A study of Homo sapiens with 2 samples.

Results

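The 8 genes GPC3, CD82, LRRC17, CFI, PLSCR4, AQP1, RGS5 and CACHD1 were followed among 14884 named genes on 2 whole-transcript arrays of UACC62, an established human melanoma cell line. One array held total RNA of cells given a non-targeting siRNA and the other that of cells given an siRNA against FOSL1, a FOS-family subunit of the transcription factor AP-1. Both cultures were harvested 3 days after transfection, so each condition was represented by 1 array of 1 cell line. The sources used here do not say whether 1 siRNA sequence or a mixture was used. The 8 genes were chosen by their difference between these same arrays, all being higher with FOSL1 siRNA, and because they code for proteins of, or near, the cell surface. Their differences are therefore a description and were not tested, and with 1 array per condition no replicate error can be given.

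Most of these genes code for proteins that face the outside of the cell, where a cell meets growth factors, matrix, water, ions and blood proteins. GPC3 is a glypican, a heparan sulfate proteoglycan held by a lipid anchor that modulates growth factor and Wnt signalling, and CD82 is a tetraspanin, also called KAI1, described as a suppressor of metastasis. LRRC17 and CFI are secreted, AQP1 is a water channel, PLSCR4 is a membrane protein of the phospholipid scramblase family, and CACHD1 is a membrane protein related to the alpha2delta subunits of calcium channels. RGS5 is an exception to the grouping: it acts inside the cell, where it speeds the GTP hydrolysis of G protein alpha subunits and so shortens signals from surface receptors. FOSL1 pairs with JUN proteins, and the dimer binds short DNA elements of the AP-1 type.

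The promoters are described first, as sequence that the choice of genes did not use. RefSeq windows of 250 bases before to 50 bases after a start (GRCh38.p14) were found for 7 of the 8 genes, 9 windows in all, since RGS5 and PLSCR4 each had 2 starts. GPC3 had no entry in the table. The windows fell on both sides of the CpG content of promoters at large: 5 of 9 held more than the median of 14 CpG dinucleotides over 35116 promoters, while 3 held 5 or fewer, as did 33.7% of all promoters. Windows from either side of that median are printed 5′ to 3′ with CpG dinucleotides in capitals, on the strand of the gene. The window of CD82 (chr11:44565413-44565712, plus strand) held 33 CpG, and that of CFI (chr4:109801950-109802249, minus strand) held 2. LRRC17, the gene with the highest difference of the 8, had 5 CpG in its window (chr7:102912750-102913049, plus strand).
CD82: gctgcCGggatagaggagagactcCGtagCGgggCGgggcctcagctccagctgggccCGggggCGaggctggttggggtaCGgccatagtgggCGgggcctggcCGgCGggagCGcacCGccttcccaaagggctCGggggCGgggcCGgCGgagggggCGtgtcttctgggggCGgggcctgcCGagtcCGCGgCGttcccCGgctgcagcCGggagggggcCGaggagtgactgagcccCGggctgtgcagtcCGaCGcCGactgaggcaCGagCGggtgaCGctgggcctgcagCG
CFI: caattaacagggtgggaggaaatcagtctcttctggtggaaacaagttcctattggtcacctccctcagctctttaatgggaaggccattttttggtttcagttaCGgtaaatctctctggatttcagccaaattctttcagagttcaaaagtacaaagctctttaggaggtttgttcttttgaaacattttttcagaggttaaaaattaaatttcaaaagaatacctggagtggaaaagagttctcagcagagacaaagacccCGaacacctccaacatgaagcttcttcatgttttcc
LRRC17: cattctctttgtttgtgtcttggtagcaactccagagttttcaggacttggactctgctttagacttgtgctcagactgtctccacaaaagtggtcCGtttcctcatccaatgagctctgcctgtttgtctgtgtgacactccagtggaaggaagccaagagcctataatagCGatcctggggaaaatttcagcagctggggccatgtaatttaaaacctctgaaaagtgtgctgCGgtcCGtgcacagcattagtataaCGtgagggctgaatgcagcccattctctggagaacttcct

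The 2 starts of RGS5 lay on either side of the median. The upstream start (chr1:163321686-163321985, minus strand) held 28 CpG and the downstream start (chr1:163202867-163203166, minus strand) held 1. A single probe set measured the gene, so which start was in use was not resolved. Both windows are shown with CpG in capitals.
RGS5 start 1: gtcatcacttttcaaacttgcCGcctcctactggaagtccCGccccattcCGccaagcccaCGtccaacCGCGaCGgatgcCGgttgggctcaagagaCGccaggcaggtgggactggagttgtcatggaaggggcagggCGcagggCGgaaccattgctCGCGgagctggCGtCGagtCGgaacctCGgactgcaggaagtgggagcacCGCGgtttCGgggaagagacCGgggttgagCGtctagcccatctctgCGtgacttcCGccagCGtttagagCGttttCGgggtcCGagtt
RGS5 start 2: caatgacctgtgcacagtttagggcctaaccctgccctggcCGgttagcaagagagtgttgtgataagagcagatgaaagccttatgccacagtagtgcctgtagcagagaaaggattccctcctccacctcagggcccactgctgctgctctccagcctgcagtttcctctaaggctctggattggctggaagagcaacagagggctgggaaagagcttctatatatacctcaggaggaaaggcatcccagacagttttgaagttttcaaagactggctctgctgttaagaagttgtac

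**Figure D1:**
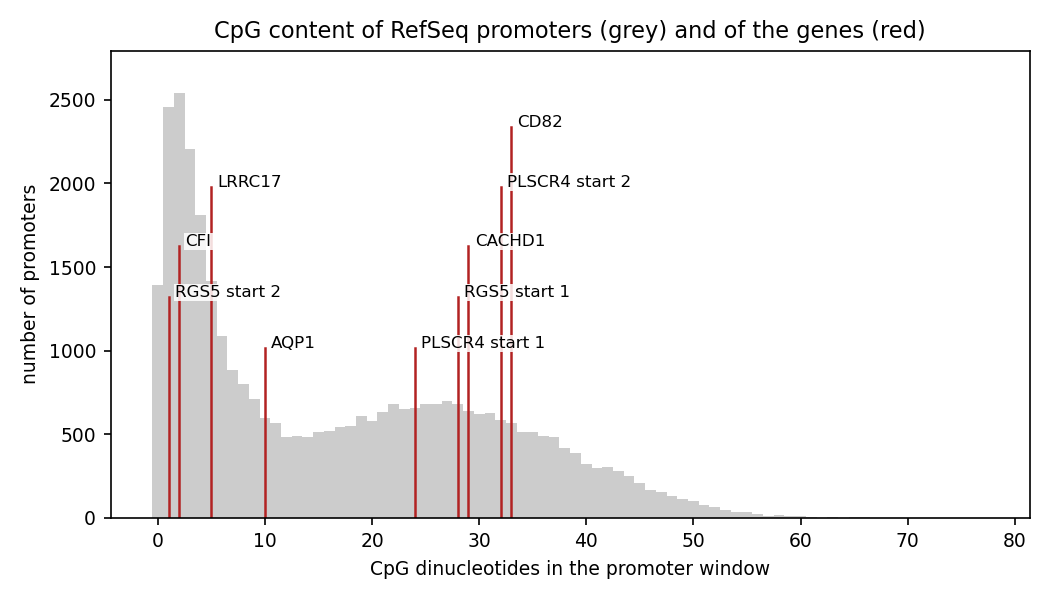
Number of RefSeq promoter windows (vertical axis) by their count of CpG dinucleotides (horizontal axis); red lines mark the 9 windows of 7 of the genes, and the height of a line only places its label. The red lines lie in both humps: RGS5 start 2, CFI and LRRC17 at 1, 2 and 5 CpG, AQP1 at 10, and the other 5 windows between 24 and 33.

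Of the 9 windows, 0 held the AP-1 element TGANTCA on either strand, where N is any base; 7.71% of all promoters held it. The cyclic AMP response element TGACGTCA was in 0 of 9 windows and in 1.85% of all promoters. The letters CATGTG and CACGTG, the M-box and E-box that MITF can bind, were each in 0 of 9, against 11.1% and 7.26%. These counts say only that the letters are not in these 300 bases. The TEAD element GGAATG was in 1 window (14.0% of all promoters), on the reverse strand of RGS5 start 1 at position -205, counted in bases from the start. The letters TATAAA were in 2 windows (11.5% of all promoters). In the window of PLSCR4 start 1 they lay on the reverse strand after the start, but in that of AQP1 (chr7:30911603-30911902, plus strand) they lay on the forward strand at position -30. That window is printed because it alone of the 9 has these letters upstream of the start on the gene's own strand, and they are in capitals.
AQP1: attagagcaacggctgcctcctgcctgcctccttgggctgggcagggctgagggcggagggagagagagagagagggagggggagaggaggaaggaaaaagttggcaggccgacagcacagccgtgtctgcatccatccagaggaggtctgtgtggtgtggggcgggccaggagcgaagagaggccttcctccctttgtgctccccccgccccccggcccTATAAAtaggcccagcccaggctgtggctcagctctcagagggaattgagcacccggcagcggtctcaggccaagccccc

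Each of the 8 genes was measured by 1 probe set, a group of probes summarised as 1 log2 intensity. The differences with FOSL1 siRNA minus control siRNA ran from 0.78 for AQP1 to 1.22 for LRRC17, with a median of 0.94, while the median over all 7442 named genes past the filter on dim genes was -0.00. That filter was a mean log2 value over both arrays of at least 8.02, the median of named genes, and all 8 genes passed it. CFI and CD82 were under that value in the control array and passed through the array in which they were high. Of the 8 genes, 8 were at least 1.5-fold and 3 at least 2-fold higher; among all genes past the filter, 1.13% were at least 1.5-fold and 0.0806% at least 2-fold higher. The rule used this contrast, so nothing can be read from that comparison. The targeted gene FOSL1 had log2 values of 11.90 and 10.38, a level 2.88-fold lower with its siRNA.

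**Figure D2:**
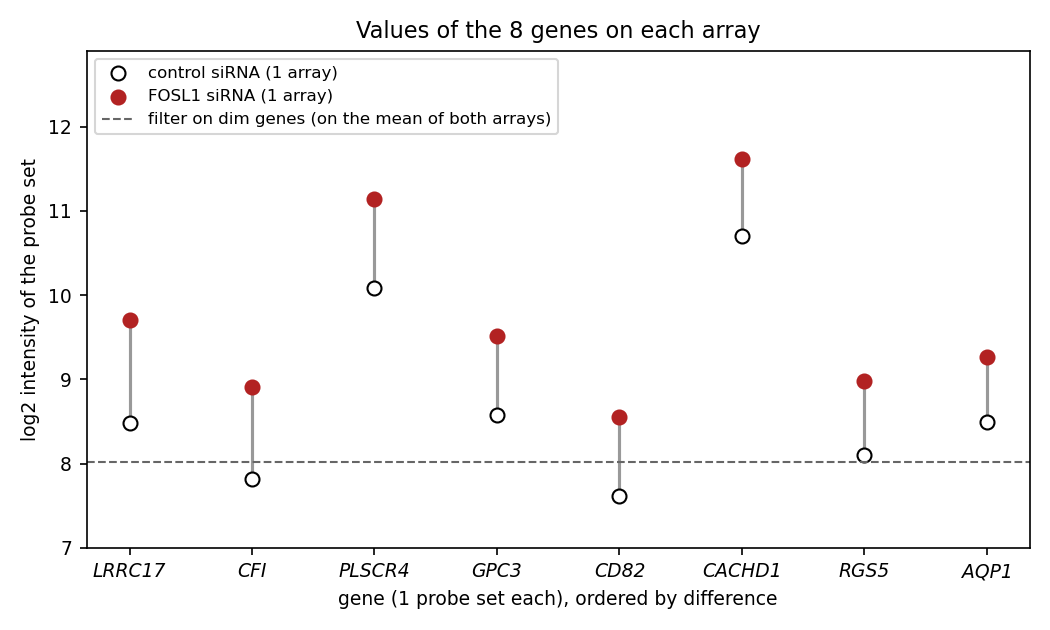
Log2 intensity (vertical axis) of the 1 probe set of each gene (horizontal axis) with control siRNA (open circles) and FOSL1 siRNA (red circles), 1 array each; the dashed line is the filter value of 8.02, which was applied to the mean of both arrays. Every red circle lies above its open circle, and the open circles of CFI (7.82) and CD82 (7.62) lie under the line.

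Among the secreted proteins, LRRC17, a leucine-rich repeat protein described as an inhibitor of osteoclast formation, had log2 values of 8.48 on the control array and 9.70 on the FOSL1 siRNA array (probe set 17049904, chromosome 7). Its difference of 1.22 was rank 2 of the 7442 genes past the filter and rank 17 of all 14884 named genes. Among the 500 genes closest to it in mean log2 value, 0 differed upward by as much. LRRC17 was chosen for a high value of this difference, so its rank and this count follow from the choice. The gene lies within the span of FBXL13, an F-box gene on the opposite strand, which had log2 values of 7.23 and 7.61. Since whole-transcript probe sets of overlapping genes can share signal where strand is not resolved, the values of FBXL13 are given beside those of LRRC17, and a part of either in the other was not tested. ARMC10 and RASA4, the nearest named genes on either side, had differences of 0.12 and -0.26.

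Other leucine-rich repeat proteins of the matrix and surface had smaller differences. Of 52 listed, 45 had a named probe set and 15 passed the filter. LRRC17 alone of these 15 was at least 1.5-fold higher, beside 1.13% of all genes past the filter. The other 14 had a median difference of 0.10, with 9 above 0 and 5 below (49.8% of all genes past the filter were above 0). BGN (biglycan), a small proteoglycan of the matrix, had 10.09 and 10.64, and LUM (lumican), of the same class, 11.05 and 11.53. PRELP, which binds collagen, had 9.16 and 9.55. On the other side RTN4R, the Nogo receptor, had the lowest difference of the list, -0.47. With a trend on gene span removed, 1 of the other 14 reached 1.5-fold higher, as did 92 of all 7442 genes past the filter.

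CFI, complement factor I, is the secreted protease that cuts C3b and C4b and so stops the complement cascade. It had log2 values of 7.82 and 8.91 (probe set 16978976, chromosome 4), a level 2.13-fold higher with FOSL1 siRNA. None of the 500 genes closest in mean log2 value had a difference as high, and the nearest to it was CCDC102B at 0.97. That count follows from the choice of CFI, and the mean used for matching was raised by the array where CFI is high. Both named neighbours lay closer to 0: MCUB, a subunit of the mitochondrial calcium uniporter, at -0.06, and GAR1, a small nucleolar ribonucleoprotein, at 0.24.

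The rest of the complement system was dim on these arrays. Of 57 listed genes, 32 had a named probe set and 3 passed the filter: CFI, CFD and COLEC12. CFD, the protease factor D of the alternative pathway, had 8.68 and 8.40, and COLEC12, a scavenger receptor of the collectin family, 8.28 and 8.47. C3, the substrate on which CFI acts once it is cleaved, was under the filter with 6.99 and 7.20, as was CFB, factor B, with 7.54 and 7.44. The membrane regulators CD46, CD55 and CD59 had no named probe set in the table used here.

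At the surface, GPC3 had log2 values of 8.57 and 9.52 (probe set 17114288, chromosome X), a difference of 0.94. LRRC17 was the 1 gene of the 500 closest in mean log2 value with a difference as high. That count follows from the choice of GPC3. GPC4, a glypican whose gene lies next to it on the chromosome, had 10.61 and 10.49, a difference of -0.12. The other glypicans gave -0.18 for GPC1, -0.26 for GPC2, -0.07 for GPC5 and -0.08 for GPC6, of which GPC2 and GPC5 were under the filter. All 5 other glypicans thus had differences below 0, each smaller in size than that of GPC3; without the filter, 45.4% of all named genes were above 0.

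Of 39 genes listed for cell surface and matrix proteoglycans, mainly of heparan sulfate, and the enzymes that build or trim their chains, 36 had a named probe set and 23 passed the filter. The list also held CSPG4, a chondroitin sulfate proteoglycan, with 10.54 and 10.44. GPC3 was at least 1.5-fold higher, and 0 of the other 22 were 1.5-fold higher or lower. Such changes were rare in the whole filtered set of 7442, at 1.13% (up) and 0.766% (down). A count of 0 among 22 therefore lies near the background and does not set GPC3 apart from its list. The median of those 22 was 0.01, and it lay on the other side of 0 (-0.01) with a span trend removed or as a mean of probe sets. SULF1, a sulfatase that trims heparan sulfate outside the cell, had the highest difference of the 22, 0.51, with 8.86 and 9.37. EXT1, which polymerises the chain, had 11.69 and 12.12. SDC4, syndecan 4, had the lowest, -0.45, with 11.92 and 11.47.

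CD82 had log2 values of 7.62 and 8.55 (probe set 16724061, chromosome 11), a level 1.90-fold higher. Of the 500 genes closest in mean log2 value, 1 had a difference as high, the interferon-induced gene IFIT3 at 1.02. That count follows from the choice of CD82, and the mean used for matching was raised by the array where CD82 is high. The widely expressed tetraspanins CD63, CD81 and CD151 had differences of -0.01, -0.14 and -0.29, and CD9, just under the filter, had -0.25. Others lay above 0, such as TSPAN5 at 0.31 and CD53 at 0.29, both under the filter. Of 32 tetraspanins with a named probe set, 15 passed the filter. The 14 other than CD82 had a median of -0.11, with 3 above 0 and 11 below, where 49.8% of all genes past the filter were above 0. None of the 14 reached 1.5-fold, beside shares of 1.13% higher and 0.766% lower over all genes. TSPAN6 had the highest difference of the 14, 0.24, and TSPAN13 the lowest, -0.38. ALX4 and TSPAN18, the nearest named genes on either side of CD82, differed by 0.04 and -0.03, both under the filter.

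CD82 also stood in a list of 37 symbols for genes described as metastasis suppressors, where CCN2 and CAVIN2 also stood under older symbols. Of the 37, 26 had a named probe set and 22 passed the filter. The other 21 had a median of -0.08, with 7 above 0 and 14 below, beside 49.8% above 0 over all genes past the filter. DLC1, a RhoGAP, had the highest difference of these, 0.36. KISS1R, the receptor for kisspeptin, was 1.55-fold lower with values of 8.99 and 8.35, and it was under 1.5-fold lower when a span trend was removed. Among all genes past the filter 0.766% were at least 1.5-fold lower.

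**Figure D3:**
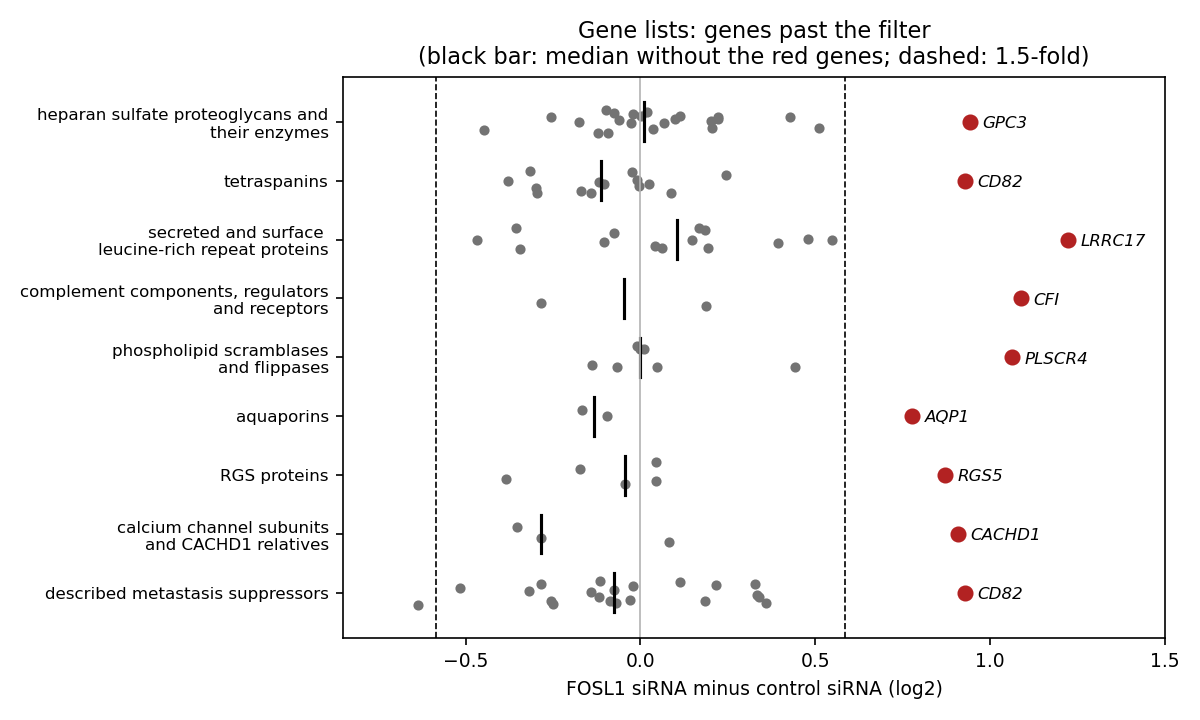
Difference with FOSL1 siRNA minus control siRNA (horizontal axis, log2) of genes past the filter, by gene list; red points are the 8 genes (CD82 stands in 2 lists), grey points the other genes of a list, black bars their median and dashed lines 1.5-fold. All red points lie right of the dashed line at 1.5-fold higher and no grey point does; the grey point left of the lower line is KISS1R.

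AQP1, the water channel of red cells, kidney and many endothelia, had log2 values of 8.49 and 9.27 (probe set 17044862, chromosome 7). Its difference of 0.78 was the lowest of the 8 and rank 22 of the 7442 genes, between INTS6L (0.78) above and HINT3 (0.77) below. Among all 14884 named genes, without the filter, it was rank 102. Of 13 aquaporins with a named probe set, AQP1, AQP5 and AQP12A passed the filter, and the other 10 did not. AQP5, a water channel of glands, had 8.35 and 8.26, and AQP12A had 8.27 and 8.10. Below the filter, AQP3 had a difference of -0.27, AQP7 of -0.83 and AQP9 of 0.51, the last 2 being dim, at 6.69 and 5.11 with control siRNA. The remaining ones lay between -0.31 for AQP4 and AQP10 and -0.05 for AQP11. CRHR2 and GHRHR, peptide hormone receptors and the nearest named genes on either side of AQP1, had differences of -0.19 and -0.32, both under the filter.

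PLSCR4 had log2 values of 10.08 and 11.14 (probe set 16960149, chromosome 3), a level 2.09-fold higher with FOSL1 siRNA. None of the 500 genes closest in mean log2 value was as high: the next, the pseudogene RPL21P28, had 0.72. That count follows from the choice of PLSCR4. PLSCR1, a scramblase family member that interferon induces, was under the filter with 6.75 and 7.12. PLSCR2, the named gene next to PLSCR4 on the chromosome, was dim with 4.89 and 4.91. Of 38 genes for scramblases and flippases, which move phospholipids between the leaflets of a membrane, 14 had a named probe set and 8 passed the filter. The other 7 had a median of -0.00, which gives no direction. None of the named genes was an ATP8A, ATP8B, ATP9, ATP10 or ATP11 flippase, so these were not analysed here. ANO6, the calcium-dependent scramblase of platelets and many other cells, had 12.88 and 12.74, and TMEM41B, a scramblase of the endoplasmic reticulum, had 9.65 and 10.10.

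CACHD1 had log2 values of 10.71 and 11.61 (probe set 16665621, chromosome 1), a difference of 0.91. PCDH18, a protocadherin, was the 1 gene of the 500 closest in mean log2 value with a difference as high, 1.12. That count follows from the choice of CACHD1. JAK1, a kinase gene and the nearest named gene on the higher side of CACHD1, had 11.52 on both arrays and a difference of 0.01. MIR4794, a microRNA gene within the span of CACHD1, was dim with 4.01 and 3.50. The calcium channel list held 48 symbols, with NALF1 and NALF2 also under older symbols. Of the 48, 13 had a named probe set and 4 passed the filter. None of the named ones was a CACNA1, CACNA2D, CACNB or CACNG subunit. The relatives of CACHD1 were therefore not analysed here. The other 3 past the filter were GEM (-0.28), a small GTPase that restrains calcium channels, STAC2 (-0.35), an adaptor of such channels, and CALHM2 (0.08).

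RGS5 had log2 values of 8.10 and 8.97 (probe set 16695791, chromosome 1), a level 1.83-fold higher. None of the 500 genes closest in mean log2 value was as high, which follows from the choice of RGS5. RGS4, the nearest named gene on the lower side of RGS5, was under the filter and had 6.94 and 6.85. Of 20 RGS genes with a named probe set 6 passed the filter, and the 5 other than RGS5 had differences from -0.38 for RGS14 to 0.04 for RGS10 and RGS16. RGS19, which acts on Gi proteins, had 9.79 and 9.62, RGS16 had 8.38 and 8.42 and RGS17 had 8.46 and 8.42. The 14 under the filter lay between -0.22 for RGS11 and 0.16 for RGS13.

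Over the 9 lists, 222 genes other than the 8 had a named probe set and 90 passed the filter. Of the 90, 1 was 1.5-fold lower or more (KISS1R) and 0 were 1.5-fold higher, and their median difference was -0.02. Over all genes past the filter 0.766% and 1.13% were so, with a median of -0.00, so these counts lie near the background. Under the filter, 1 gene was at least 1.5-fold higher, the neuronal leucine-rich repeat gene LRRN3 with 6.44 and 7.16. In the other direction 2 were at least 1.5-fold lower, the aquaporin AQP7 with 6.69 and 5.87 and the complement C5a receptor gene C5AR2 with 5.36 and 4.76. Without the filter, 1.91% of all named genes were at least 1.5-fold higher and 1.43% lower, so nothing is read from these few genes. The nearest named genes on the chromosomes, with overlapping ones, numbered 18. Of them 6 passed the filter, 3 above 0 and 3 below, and 0 of the 18 were 1.5-fold higher or lower, against 1.91% and 1.43% of all named genes without the filter. Gene order came from the RefSeq table of GRCh38.p14.

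**Figure D4:**
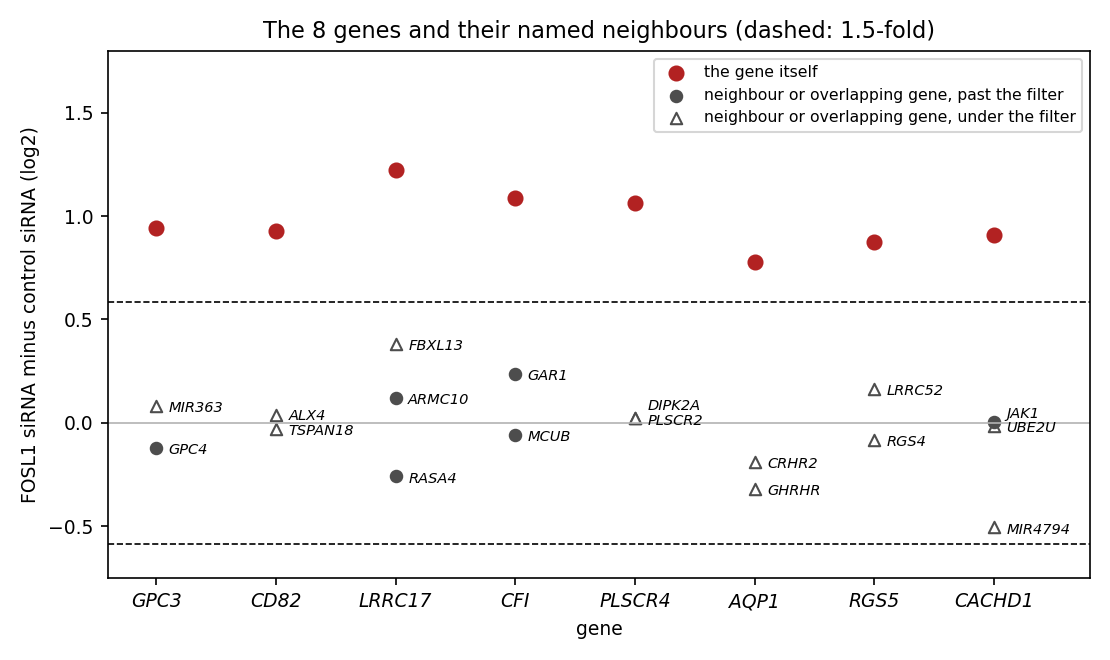
Difference with FOSL1 siRNA minus control siRNA (vertical axis, log2) of each of the 8 genes (red) and of the nearest named gene on either side and any named gene that overlaps it (filled circles past the filter, open triangles under it); dashed lines are 1.5-fold. The 18 neighbours lie between -0.51 (MIR4794) and 0.38 (FBXL13), inside the dashed lines.

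Neighbours in the order of the 8 differences were not separated. Their steps ran from 0.02 to 0.13, all 7 under the SD of 0.169 between probe sets of 1 gene, which was measured within this pair of arrays over 213 genes. The highest and the lowest, LRRC17 and AQP1, lay 0.446 apart, which is more than that SD. It is a spread of single probe sets and not an error between cultures, so whether these 2 genes differ was not tested. Against brightness, at most 1 of the 500 genes closest in mean log2 value was as high as the gene itself, and the SD of those 500 differences was between 0.196 for PLSCR4 and 0.271 for CFI. Against gene span, the medians of the 500 genes closest in span lay between -0.03 for AQP1 and 0.11 for CACHD1, a gene of long span, and at most 2 of 500 were as high as the gene itself. The genes were chosen for a high value of this same difference, so such ranks follow from the choice and support nothing. CFI and CD82 also reached the filter, and the mean by which they were matched, through the array where they are high.

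**Figure D5:**
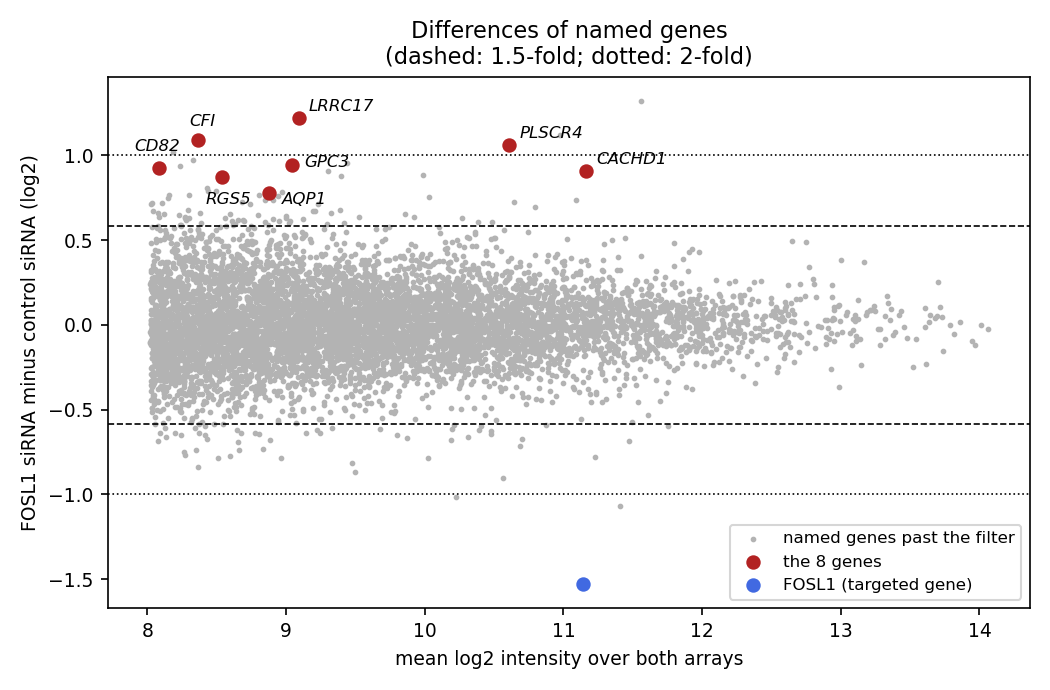
Difference with FOSL1 siRNA minus control siRNA (vertical axis, log2) against mean log2 intensity over both arrays (horizontal axis) for 7442 named genes past the filter (grey), with the 8 genes in red and FOSL1 in blue; dashed and dotted lines are 1.5-fold and 2-fold. The red points lie along the upper edge of the cloud over mean values from 8.08 (CD82) to 11.16 (CACHD1), and FOSL1 is the lowest point at -1.53.

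The genes closest to each of the 8 in their pair of log2 values were taken by Euclidean distance over the 2 arrays, which is a likeness of numbers on the array and not of amounts of RNA. GPC3 was closest to RGPD4 (distance 0.0187), of a family of near-identical genes whose signal is uncertain, and LRRC17 was closest to GPC3 (0.209). CD82 was closest to ZNF235 (0.149), CFI to CCDC102B (0.0972), PLSCR4 to RPL21P28 (0.245) and AQP1 to CTSO (0.0485). RGS5 was closest to PDE7B (0.0847), a phosphodiesterase of cyclic AMP, and CACHD1 to PAG1 (0.157), a membrane adaptor.

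The label of the cells was checked against markers. Of 16 named melanocyte lineage and melanoma markers 11 passed the filter, among them S100B (13.18 and 13.09), SOX10 (11.07 and 10.77), TYR (11.31 and 10.98) and MLANA (9.57 and 9.69), whereas PMEL (6.62 and 6.90) and TYRP1 (6.50 and 6.47) were under it. RGS5 is also a marker of pericytes and AQP1 of endothelium and red cells. Of the pericyte and smooth muscle markers 7 of 14 were named and 3 passed the filter, with linear intensities that summed to 3275 on the control array and 3273 on the FOSL1 siRNA array. CSPG4 and MCAM, which melanoma cells also express, were the brightest, with 10.54 and 9.61 on the control array. PDGFRB, ACTA2, KCNJ8, ABCC9, HIGD1B, CNN1 and MYH11 had no named probe set, so the sums leave these pericyte and smooth muscle markers out. For endothelium and red cells 8 of 19 were named and 2 passed, with sums of 3354 and 3573. KDR had 11.20 and 11.39, while the defining endothelial markers PECAM1 (7.32 and 7.02) and VWF (7.39 and 7.15) were under the filter on both arrays. The fibroblast list had 4 of 10 named and 1 past the filter, LUM (11.05 and 11.53), with sums of 2430.0 and 3220.2. LUM alone of these 4 was higher with FOSL1 siRNA. DCN, THY1 and DPT, under the filter, had differences of -0.18, -0.27 and -0.12, and the collagen genes of the list had no named probe set. The leukocyte list had 8 of 17 named and 2 past it, with sums of 3008 and 2247, CD68 being 1.55-fold lower, and the list of epithelium, keratinocytes and hepatocytes had 13 of 16 named and 2 past it, with sums of 3797 and 3348. The part of other cells in the 8 differences was not tested.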

How the data were processed

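The files held 1 value per probe set and array, deposited by the authors and taken here as log2 intensity from their range (2.23 to 14.8 over 53427 probe sets). No source used here states the log base, background correction or summarisation. The arrays' distributions were nearly equal, so a shift in total RNA could not be seen. Per the labels' protocols, a whole-transcript kit amplified 100 ng of RNA, which was labelled with biotin.

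Genes were named from the platform's probe table (16098 probe sets with 1 symbol, 0 with several, 37329 without), and all 14884 matched RefSeq by Entrez ID. The brightest probe set stood for a gene. The filter on dim genes kept those whose mean over both arrays reached the named genes' median, 8.02. Differences are FOSL1 siRNA minus control siRNA, with no test, since each condition had 1 array; this number limits the precision. Fold thresholds are descriptions of size.

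The 8 genes and the gene lists were chosen with earlier results of these data known. Genes named were the 8, FOSL1, their symbol families, chromosome neighbours, the gene closest in values, and the leading genes of each list in either direction. Other genes printed, and the CpG counts, were chosen after values were seen. Alternatives were 2 scalings, loess trends on mean value and on gene span (smoothing fraction 0.3), means of probe sets, 2 other filters and thresholds of 2-fold and 3-fold. Python 3.11.15 with pandas 2.3.3 and statsmodels 0.14.6 was used, and counting was tested on simulated data.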

Additional observations from a re-analysis of the deposited data

How the results depend on the processing

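No paired analysis was possible because each condition had 1 array. The differences of the 8 genes were recomputed under 5 alternatives, and all 40 values kept their direction and moved by less than the SD of 0.169 between probe sets of a gene, by at most 0.0550. All 8 stayed at least 1.5-fold higher and the 3 above 2-fold (LRRC17, CFI and PLSCR4) stayed above it. Each gene had 1 probe set, so the mean of probe sets left its value as it was, and the arrays had nearly equal distributions, so scaling could move it little. Whether another culture would give the same differences was not measured. The count of genes at least 1.5-fold higher, 84, lay between 78 and 92 under the scalings, trends and means of probe sets. It was 284 with no filter on dim genes, since more genes entered, and 15 when genes had to reach the 75th percentile, which 2 of the 8 genes passed. At thresholds of 2-fold and 3-fold it was 6 and 0.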
